A study of Mus musculus with 8 samples.

Results

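The 9 genes described here encode growth factor and cytokine receptors of blood progenitors: Kit, Flt3, Csf3r, Csf2ra, Csf2rb, Il3ra, Il6ra, Il6st and Ifngr1. They were taken by symbol from the array annotation, each had 1 probe set with that symbol alone, and all 9 were measured among 19938 genes. C57Bl/6 mouse bone marrow cells bearing c-Kit received a lentivirus that expresses the zinc finger transcription factor KLF7 or a control virus, and after 72 hours the Lin- c-Kit+ Sca-1+ cells, which hold stem cells and early progenitors, were isolated by sorting. The RNA of the sorted cells was amplified and hybridised to 4 arrays labelled KLF7 and 4 labelled control. Neither the promoter of the virus nor the origin of each array (a culture or animal of its own) is named in the labels, so every p-value reflects array-to-array spread that may be technical.

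Haematopoietic progenitors read their surroundings through a few receptor types. Kit, the receptor for stem cell factor, and Flt3, the receptor for FLT3 ligand, are receptor tyrosine kinases that dimerise when their ligand binds. Csf3r, Csf2ra, Csf2rb, Il3ra, Il6ra and Il6st encode chains of type I cytokine receptors, which have no kinase of their own and signal through bound JAK kinases to STAT factors, and Ifngr1 encodes the ligand-binding chain of the interferon gamma receptor. Kit is carried by stem cells, early progenitors and mast cells, Flt3 by progenitors with lymphoid and dendritic potential, and Csf3r by granulocyte precursors and neutrophils.

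KLF7 belongs to a family that binds CACCC elements and GC boxes, and the promoters of the receptor genes were read for these letters. The 250 bases before the annotated start are shown 5′ to 3′ for Csf3r, whose mean was lower on the KLF7 arrays, and Il6ra, whose mean was higher, from RefSeq on GRCm38.p6, with matches to CACCC or GGGCGG on either strand in capitals.
Csf3r, chr4:126024409-126024658, plus strand: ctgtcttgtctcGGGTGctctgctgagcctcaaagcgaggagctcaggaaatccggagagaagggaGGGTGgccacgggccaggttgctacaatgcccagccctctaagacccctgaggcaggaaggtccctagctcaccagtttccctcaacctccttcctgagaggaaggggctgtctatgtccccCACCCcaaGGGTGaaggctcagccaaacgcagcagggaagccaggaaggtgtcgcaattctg
Il6ra, chr3:89913197-89913446, minus strand: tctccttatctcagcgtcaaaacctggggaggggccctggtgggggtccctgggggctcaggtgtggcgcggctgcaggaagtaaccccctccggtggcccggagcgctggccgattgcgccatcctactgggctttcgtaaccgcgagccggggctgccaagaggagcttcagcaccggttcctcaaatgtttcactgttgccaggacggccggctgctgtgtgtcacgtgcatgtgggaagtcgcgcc
Csf3r held 4 CACCC matches and no GGGCGG match, and Il6ra held neither. Promoters were found for 8 of the 9 genes, all but Csf2rb. Of these, Kit held 1 CACCC and 1 GGGCGG, Flt3 held 2 and 0, Csf2ra held 3 and 1, Il3ra held 1 and 5, Il6st held 2 and 1, and Ifngr1 held 0 and 2, where matches could overlap. The 2 windows shown are those with the most CACCC matches and with no match, and Il6st, whose mean was also higher, held both motifs. Whether matches go with the direction of a difference was not tested. Of 32851 promoter windows of the same length, 52.0% held CACCC at least once and 6.92% at least 3 times. For GGGCGG the shares were 32.7% and 8.47%. A match is a description of the letters in this window and no evidence that KLF7 binds there.

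The levels of the transduced gene checked the labels. Klf7 had log2 intensities of 11.43, 10.19, 11.05 and 10.52 on the arrays labelled KLF7, against 8.53, 10.28, 9.35 and 7.98 on the arrays labelled control. The groups overlapped in 1 pair, since control 2 exceeded KLF7 2, and the exact two-sided permutation p was 0.0571 where 0.0286 is the smallest that the 70 splits allow. Groups are accordingly called by their labels. Of other surface genes of blood progenitors, Cd34 and Ptprc, which encodes CD45, had mean log2 intensities of 10.17 and 9.90 on KLF7 arrays, against 10.14 and 9.51 on control arrays, and Ly6a, which encodes Sca-1, is not analysed here. The 7 measured markers of mature T, B and NK cells, which a lineage gate is meant to remove, summed to 141 to 188 intensity units on KLF7 arrays and 166 to 175 on control arrays. Markers of granulocyte precursors and neutrophils summed to 5644 to 25865 on KLF7 arrays and 4463 to 29096 on control arrays. Those of monocytes, macrophages and dendritic cells summed to 7987 to 16208 on KLF7 arrays and 3932 to 9441 on control arrays. The T, B and NK sum alone therefore does not show how complete the lineage gate was. The arrays numbered 4 stood apart in both groups, and each correlated best across genes with the other (r = 0.981).

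Across the 9 receptor genes, the arrays labelled KLF7 had a higher mean for 8 and a lower mean for 1, Csf3r. The median difference was 0.31 on the log2 scale (KLF7 minus control), against 0.00194 over all genes, of which 50.4% averaged higher on KLF7 arrays. No receptor gene passed limma's test with Benjamini-Hochberg adjustment over all genes (adjusted p 0.351 to 0.991), nor did any of the 19938 genes (0% called, smallest adjusted p 0.201). At an unadjusted p under 0.05 there were 3 of the 9, Csf3r lower and Csf2rb and Il6ra higher, where 1637 of all genes (8.21%) reached that level. The arrays of the groups did not overlap for 1 of the 9, Csf3r, and 5.22% of all genes separated in this way. The half-widths of the 95% intervals ran from 0.48 for Il6ra to 1.23 for Kit, which sets the precision of these differences.

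**Figure D1:**
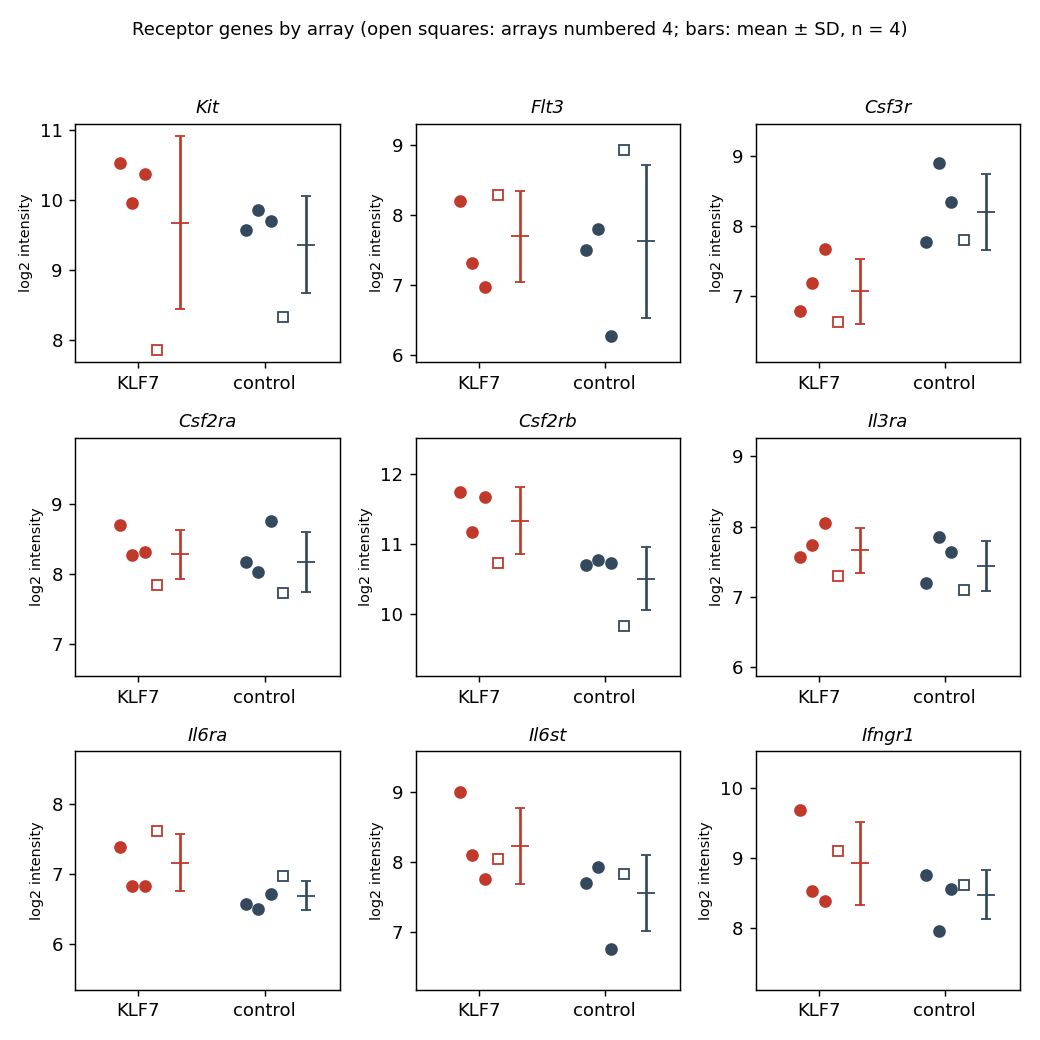
Log2 intensity of the 9 receptor genes on each array, KLF7 arrays on the left and control arrays on the right of each panel, with every panel spanning the same number of log2 units. Open squares are the arrays numbered 4, and bars give the mean and SD of 4 arrays. Csf3r is the panel in which the groups do not overlap, and in the Kit panel the open squares, at 7.85 and 8.33, lie below all filled points.

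Csf3r, the receptor for granulocyte colony-stimulating factor, had the largest difference of the 9 genes. Its log2 intensity was 6.78, 7.18, 7.66 and 6.63 on the KLF7 arrays, against 7.76, 8.90, 8.33 and 7.79 on the control arrays. Every KLF7 array lay below every control array, with KLF7 3 the nearest to the control arrays. The means were 7.06 ± 0.46 on KLF7 arrays and 8.20 ± 0.54 on control arrays (SD, n = 4 each), a difference of -1.13 (SE 0.30, 95% interval -1.80 to -0.46, 2.19-fold lower), with an unadjusted p of 0.00348 and an adjusted p of 0.351 in limma. Omitting any single array left it between -1.33 and -0.90.

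The markers of granulocyte precursors and neutrophils were divided. Of the 13 measured, 7 averaged higher and 6 lower on KLF7 arrays (median difference 0.03), with no member at an unadjusted p under 0.05. Their summed intensity ran from 5644 to 25865 on the KLF7 arrays and from 4463 to 29096 on the control arrays. Among them, Cxcr2, a chemokine receptor gene of neutrophils, averaged 6.72 ± 0.71 on KLF7 arrays and 6.18 ± 0.48 on control arrays (SD, n = 4 each). Mpo, the myeloperoxidase gene, averaged 10.41 ± 1.53 on KLF7 arrays and 11.52 ± 1.21 on control arrays (SD, n = 4 each), and Cebpe, a factor of granulocyte maturation, averaged 6.89 ± 0.78 on KLF7 arrays and 7.44 ± 0.80 on control arrays. In bulk RNA, fewer cells of a type and less RNA per cell cannot be told apart.

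The common beta chain differed in the other direction. Csf2rb encodes the signalling chain that the receptors for GM-CSF, interleukin 3 and interleukin 5 share. Its log2 intensity was 11.75, 11.18, 11.68 and 10.73 on the KLF7 arrays, against 10.71, 10.77, 10.73 and 9.83 on the control arrays. KLF7 1 to 3 lay above all control arrays, and KLF7 4, the lowest of its group, lay among control 1 to 3. The difference was 0.83 (SE 0.29, 95% interval 0.19 to 1.46, 1.77-fold), with an unadjusted p of 0.0155 and an adjusted p of 0.461 in limma, and omitting any single array left it between 0.60 and 1.03. Csf2rb2, the neighbouring mouse gene for a beta chain used by the interleukin 3 receptor alone, is not one of the 9. It had 11.27, 11.04, 11.52 and 9.66 on the KLF7 arrays, against 10.37, 10.64, 10.63 and 8.63 on the control arrays (difference 0.80, SE 0.50, adjusted p 0.773 in limma), and its difference was 0.32 without control 4 and 1.20 without KLF7 4. Here too KLF7 1 to 3 lay above all control arrays and the arrays numbered 4 were the lowest of their group. The genes are close paralogues next to each other on chromosome 15, and whether their probe sets read each other's transcripts was not tested.

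The alpha chains that pair with the beta chain differed by less. Csf2ra, which binds GM-CSF, had 8.70, 8.27, 8.32 and 7.85 on the KLF7 arrays, against 8.17, 8.03, 8.76 and 7.74 on the control arrays. Il3ra, which binds interleukin 3, had 7.57, 7.73, 8.05 and 7.29 on the KLF7 arrays, against 7.19, 7.85, 7.63 and 7.10 on the control arrays. Both genes overlapped between groups. The difference was 0.11 for Csf2ra (SE 0.25, 95% interval -0.46 to 0.67) and 0.22 for Il3ra (SE 0.23, 95% interval -0.29 to 0.72), with adjusted p values of 0.966 and 0.914 in limma. Csf2ra turned to -0.03 without KLF7 1 and to -0.04 without control 4, and was 0.25 without KLF7 4, 0.30 without control 3 and 0.06 without control 2. Il3ra was 0.09 without KLF7 3, 0.10 without control 4, 0.13 without control 1, 0.34 without KLF7 4 and 0.35 without control 2. Il5ra, the alpha chain of the interleukin 5 receptor on eosinophils, belonged to the dimmer 50% of genes, with 3.17 to 3.52 on the KLF7 arrays and 3.41 to 4.08 on the control arrays.

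**Figure D2:**
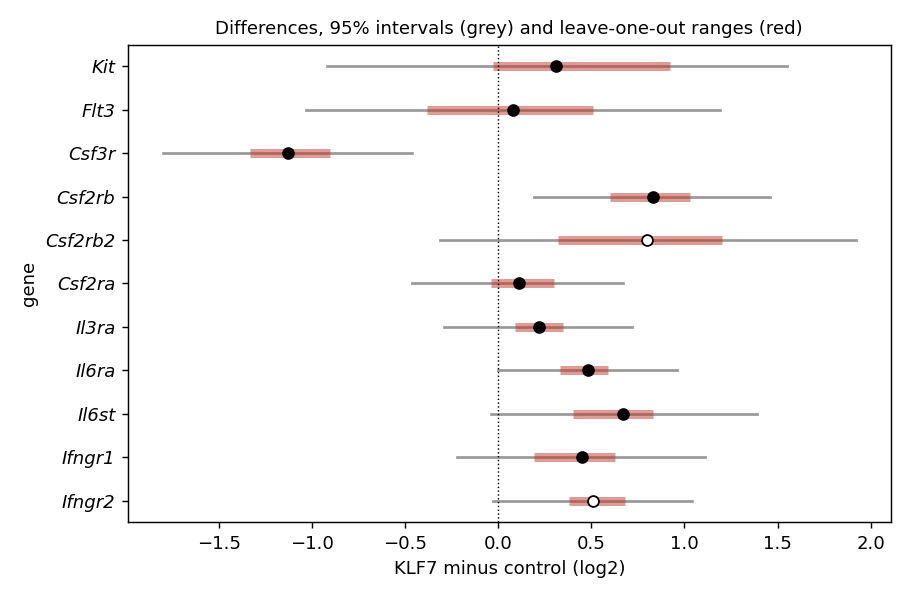
Difference in mean log2 intensity, KLF7 minus control, for the 9 receptor genes (filled points) and the partner chains Csf2rb2 and Ifngr2 (open points). Grey lines are 95% intervals from limma, and red bars span the values with any single array omitted. The interval of Csf3r lies below 0, that of Csf2rb lies above it, and the other 8 cross it apart from Il6ra. The lower end of the Il6ra interval is above 0 but rounds to it.

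Both chains of the interleukin 6 receptor had higher means on the KLF7 arrays. Il6ra encodes the chain that binds interleukin 6 and Il6st encodes gp130, the signalling chain that interleukin 6 shares with interleukin 11, LIF and oncostatin M. Il6ra had 7.39, 6.83, 6.83 and 7.62 on the KLF7 arrays, against 6.58, 6.50, 6.72 and 6.97 on the control arrays. Only control 4 reached above the lowest KLF7 arrays. The difference of Il6ra was 0.48 (SE 0.22, 95% interval 0.0 to 0.96, 1.39-fold), with an unadjusted p of 0.0491 and an adjusted p of 0.608 in limma. Omitting any single array left the difference of Il6ra between 0.33 and 0.59. Il6st had 9.0, 8.10, 7.75 and 8.04 on the KLF7 arrays, against 7.69, 7.93, 6.75 and 7.83 on the control arrays. KLF7 1 was the highest and control 3 the lowest of the 8, and the groups overlapped through KLF7 3. The difference of Il6st was 0.67 (SE 0.32, 95% interval -0.04 to 1.39, adjusted p 0.643 in limma), and it was 0.41 without KLF7 1 and 0.40 without control 3.

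The interferon gamma receptor was measured through both of its chains. Ifngr1 had 9.68, 8.53, 8.38 and 9.10 on the KLF7 arrays, against 8.76, 7.96, 8.56 and 8.62 on the control arrays. KLF7 1 and KLF7 4 lay above all control arrays, and KLF7 2 and KLF7 3 lay among them. The difference was 0.45 (SE 0.30, 95% interval -0.22 to 1.11, adjusted p 0.790 in limma), and it was 0.19 without KLF7 1 and 0.27 without control 2. Ifngr2, the signalling chain, had 8.56 to 9.47 on the KLF7 arrays and 8.23 to 8.86 on the control arrays (difference 0.51, SE 0.24, adjusted p 0.642 in limma).

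Markers of monocytes, macrophages and dendritic cells had their highest sum on KLF7 1, where Il6st, Ifngr1, Kit and Csf2rb were highest too. The remaining receptor genes had their highest level on other arrays. Of the 12 measured, 10 averaged higher on KLF7 arrays, 6 of them at an unadjusted p under 0.05 and 0 after adjustment, where 4.65% of all genes were higher at an unadjusted p under 0.05. Their summed intensity ran from 7987 to 16208 on the KLF7 arrays, with KLF7 1 the highest, and from 3932 on control 3 to 9441 on control 4 on the control arrays. KLF7 4 had the next highest sum of its group, 12504. Kit and Csf2rb were the lowest of their group on KLF7 4 and on control 4. Itgax, which encodes CD11c, differed by 1.29 (SE 0.38), Adgre1, a macrophage receptor gene, by 0.86 (SE 0.27) and Ccr2, a monocyte chemokine receptor gene, by 0.62 (SE 0.18). The part of such cells in the levels of these receptor genes was not tested.

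Kit and Flt3, the tyrosine kinase receptors, were spread more within groups than between them. Kit had 10.52, 9.96, 10.37 and 7.85 on the KLF7 arrays, against 9.57, 9.85, 9.69 and 8.33 on the control arrays. The arrays numbered 4 were the lowest of both groups, and KLF7 1 to 3 lay above control 1 to 3. The difference was 0.31 (SE 0.56, 95% interval -0.92 to 1.55, adjusted p 0.954 in limma). It was 0.92 without KLF7 4, -0.03 without control 4 and 0.58 without both (adjusted p 0.428 in limma). It was also 0.03 without KLF7 1, 0.08 without KLF7 3 and 0.48 without control 2. Flt3 had 8.20, 7.32, 6.98 and 8.29 on the KLF7 arrays, against 7.50, 7.80, 6.27 and 8.93 on the control arrays. The arrays numbered 4 were here the highest of both groups, with KLF7 1 close behind. The difference of Flt3 was 0.08 (SE 0.50, 95% interval -1.03 to 1.19, adjusted p 0.991 in limma), and it turned to -0.09 without KLF7 1, -0.12 without KLF7 4 and -0.38 without control 3.

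Markers of several cell types set the arrays numbered 4 apart, in both directions. Of 10 mast cell and basophil markers, 9 were lower on the array numbered 4 than on the other 3 arrays in both groups, and their summed intensity was 1067 on KLF7 4 and 778 on control 4, against 6335 to 13689 on the other 6 arrays. Ms4a2, a chain of the IgE receptor, had 8.22, 8.82, 9.39 and 5.59 on the KLF7 arrays, against 7.38, 8.54, 8.22 and 4.92 on the control arrays. The granulocyte markers summed to 5644 on KLF7 4 and 4463 on control 4, against 9599 to 29096 on the other 6. Of these 13 markers, 7 were lower and 1 higher on the array numbered 4 than on the other 3 arrays in both groups. The sum of the 8 erythroid and megakaryocyte markers ran the other way, with 3328 on KLF7 4 and 3989 on control 4, against 1160 to 2539 on the other 6. Only 3 of the 8 were higher on the array numbered 4 than on the other 3 arrays in both groups, and 1 was lower. Of 5 measured surface genes of progenitors, 3 (Cd27, Cd34 and Cd48) were highest on the arrays numbered 4 in both groups, as Flt3 was. Kit, 1 of the same 5, was lowest there in both groups. Of 8 lymphoid progenitor markers, 2 were above the other arrays on both arrays numbered 4, Lax1 among them, and their sum was 486 on KLF7 4, the lowest of its group, and 801 on control 4, the highest of its group. Whether the makeup of the sorted cells set the levels of Kit and Flt3 on these arrays was not tested. With both arrays left out, Csf3r was at -1.12, Csf2rb at 0.80, Il6ra at 0.42, Il6st at 0.83 and Ifngr1 at 0.44, none past the test in limma.

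**Figure D3:**
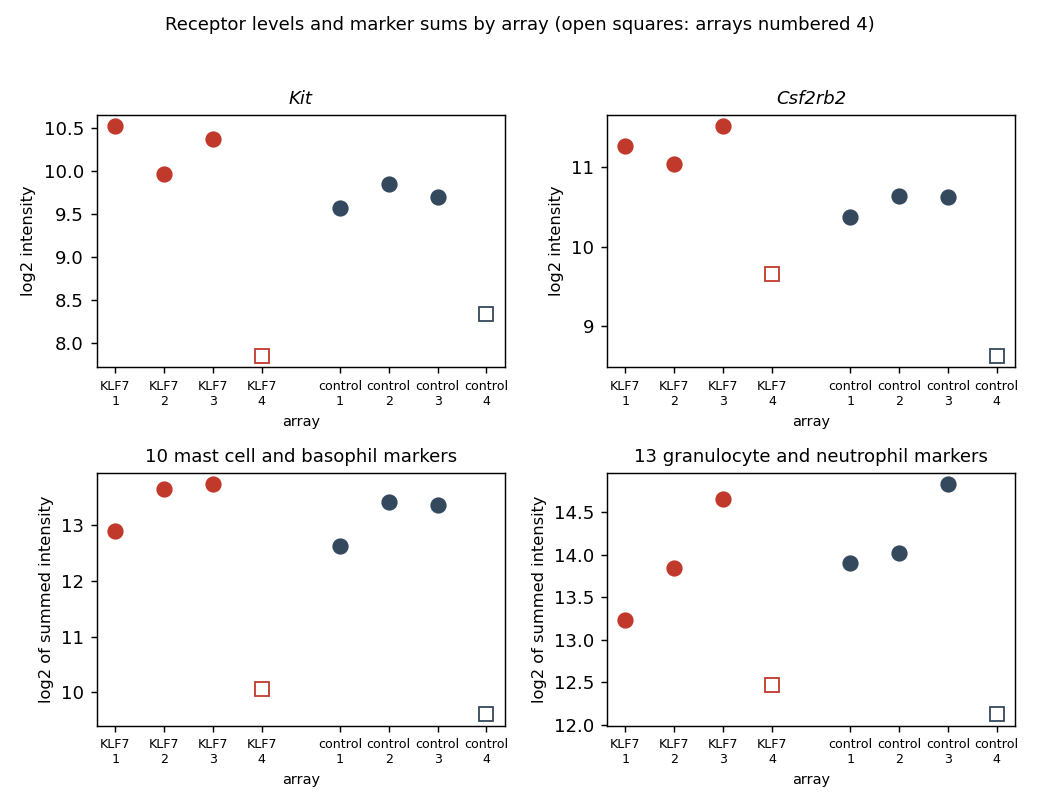
Log2 intensity of Kit and Csf2rb2 (upper panels) and log2 of the summed intensity of mast cell and basophil markers and of granulocyte and neutrophil markers (lower panels) on each of the 8 arrays. Open squares are the arrays numbered 4, which are the lowest of their group in all 4 panels.

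The ligands of these receptors were divided in direction. Of 11 ligand genes, 6 averaged higher and 5 lower on KLF7 arrays (median difference 0.01), with no gene at an unadjusted p under 0.05. Kitl, which encodes stem cell factor, was among the dimmer 50% of genes at 3.08 to 3.15 on the KLF7 arrays and 2.78 to 3.06 on the control arrays. Flt3l, the gene for FLT3 ligand, had 7.72 to 8.38 on the KLF7 arrays and 7.39 to 7.96 on the control arrays (difference 0.32, SE 0.21, and 0.19 without KLF7 3).

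Among 18 other blood cytokine and growth factor receptors, 14 averaged higher on KLF7 arrays (median difference 0.19). None passed the test over all genes, and at an unadjusted p under 0.05 there were 3 higher and 1 lower, where 4.65% and 3.56% of all genes were. Il10ra, the interleukin 10 receptor chain, had 8.93, 8.11, 8.65 and 8.23 on the KLF7 arrays, against 8.02, 7.68, 7.55 and 7.77 on the control arrays, with no overlap. Its difference was 0.73 (SE 0.22, adjusted p 0.393 in limma). Il21r, the interleukin 21 receptor, differed by 0.79 (SE 0.29), or 0.51 without KLF7 1, and Tgfbr1, a TGF-beta receptor kinase, by 0.75 (SE 0.33). Igf1r, the receptor for insulin-like growth factor 1, was the lower one at -0.75 (SE 0.27).

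Directly below the receptors, 17 of 22 kinases, adaptors and STAT genes averaged higher on KLF7 arrays (median difference 0.13), and only Jak2 was at an unadjusted p under 0.05, a level at which 8.21% of all genes stood. Jak2 encodes the kinase bound to the beta chain and to the interferon gamma receptor. It had 10.49, 9.17, 9.36 and 9.46 on the KLF7 arrays, against 9.02, 8.77, 8.82 and 8.78 on the control arrays, so the groups did not overlap. Its difference was 0.77 (SE 0.27, adjusted p 0.469 in limma), and 0.48 without KLF7 1. Of 27 inhibitors of receptor signalling, 18 averaged higher on KLF7 arrays (median difference 0.18), 2 of them at an unadjusted p under 0.05, where 4.65% of all genes were. They were Ptprj, a receptor phosphatase (0.84, SE 0.31), and Cish, a SOCS family gene induced by STAT5 (0.53, SE 0.20).

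The genes that these receptors are known to induce were mixed. Cish, Socs2 and Socs3 are counted here and among the inhibitors, and Osm here and among the ligands, so these lists are not separate observations. Of 24 targets of STAT5, STAT3 and growth factor signalling, 15 averaged higher on KLF7 arrays (median difference 0.15), and at an unadjusted p under 0.05 there were 4 higher and 2 lower, where 4.65% of all genes were higher and 3.56% lower. Myc, the growth regulator, had 10.41, 10.69, 10.83 and 10.87 on the KLF7 arrays, against 11.52, 11.37, 11.29 and 11.13 on the control arrays. All KLF7 arrays lay below all control arrays (difference -0.63, SE 0.17, adjusted p 0.368 in limma). Irf4, an interferon regulatory factor of lymphoid and dendritic cells, differed by 1.31 (SE 0.44) without overlap and Etv4, an ETS factor downstream of MAP kinase, by -0.42 (SE 0.16).

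Of 25 genes induced by interferon gamma, 22 averaged higher on KLF7 arrays (median difference 0.22), and 2 of them, Ciita and Cd74, reached an unadjusted p under 0.05, where 4.65% of all genes were higher at that level. Ciita, the master regulator of MHC class II genes, had 9.29, 8.32, 8.0 and 8.11 on the KLF7 arrays, against 7.02, 7.84, 6.72 and 7.09 on the control arrays (difference 1.26, SE 0.32, adjusted p 0.327 in limma). Cd74, the MHC class II invariant chain, differed by 1.00 (SE 0.41), and by 0.57 without control 3. Socs1 is also counted among the inhibitors. Cd74 is also on the list of dendritic cell markers, and Ciita is known to be active in those cells.

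Of 16 transcription factors known to regulate receptor genes of this kind, 8 averaged higher and 8 lower on KLF7 arrays (median difference -0.01). Myb, a factor needed by progenitors, was the one gene at an unadjusted p under 0.05, where 3.56% of all genes were lower at that level. It had 8.53, 9.26, 9.66 and 9.17 on the KLF7 arrays, against 10.08, 10.04, 10.30 and 9.82 on the control arrays, without overlap (difference -0.91, SE 0.24, adjusted p 0.356 in limma). Next by unadjusted p were Mitf, a factor of mast cells, which differed by 0.62 (SE 0.29), and Lyl1, by -0.59 (SE 0.29), or -0.37 without KLF7 1. Cebpa, a myeloid factor, followed at -0.59 (SE 0.29), or -0.36 without KLF7 1. Whether any of these factors set the level of a receptor gene was not tested.

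**Figure D4:**
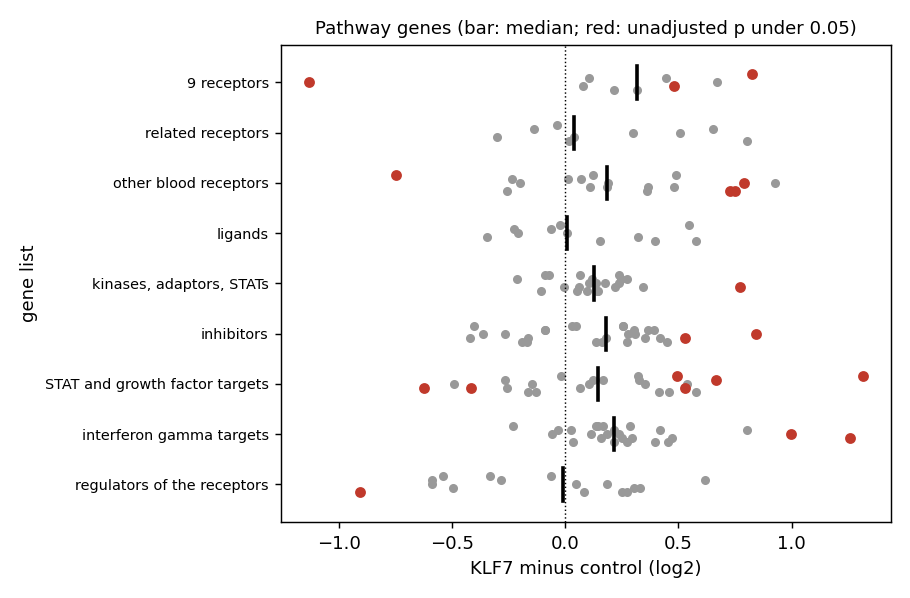
Difference in mean log2 intensity, KLF7 minus control, of every measured gene in the 9 receptors and 8 lists of the same pathways. Black bars are medians, and red points had an unadjusted p under 0.05. Medians run from -0.01 for regulators of the receptors to 0.31 for the 9 receptors, and no gene passed after adjustment over all genes.

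Genes whose levels followed each receptor most closely over the 8 arrays were found by Pearson correlation, as a description. The highest r was taken from all 19938 genes, and over only 8 arrays such a search returns high values whatever the genes do. Some of the closest genes were dim, such as Olfr1179 for Csf2ra (r = 0.979), at 2.98 to 3.85. The genes of a pair share the same arrays. Kit was most like Nfkbiz (r = 0.990), which had 8.60, 8.04, 8.20 and 6.52 on the KLF7 arrays, against 7.83, 7.94, 7.84 and 7.03 on the control arrays. Csf3r was most like Snora7a (r = 0.990) and Jade2 (r = 0.970), Il6st like Cd74 (r = 0.975) and Phf11c (r = 0.975), Ifngr1 like Il1rn (r = 0.987), and Il3ra like Gp2 (r = 0.974) and Plau (r = 0.968). The gene most like Csf2rb was Heatr9 (r = 0.985), like Flt3 it was Tlr12 (r = 0.976), like Csf2ra it was Map4k5 (r = 0.982), and like Il6ra it was D930020B18Rik (r = 0.965).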

How the data were processed

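Total RNA from sorted cells was amplified, labelled with biotin and measured on 8 single-colour arrays, per the labels' protocols. Each deposited value is the intensity of a probe set, computed by the authors. The submitters' processing notes name RMA and Affymetrix Expression Console, without versions or a genome build, so coordinates are given only for the promoter windows. The deposited intensities ran from 2.20 to 15393, which is a linear scale, so log2 was taken. Amplification and RMA can compress differences of dim genes.

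Of 35554 probe sets, 21789 carried 1 symbol; keeping the brightest per gene left 19938 genes. The limma 3.58.1 model (R 4.3.3; lmFit, then eBayes with trend) had group alone as its term. Tests were two-sided, adjusted by Benjamini-Hochberg over all genes at 0.05, and checked on simulated data. The number of arrays limits the precision. The receptor genes, lists and alternatives were chosen with earlier results of these data known. Named genes were the 9 receptors, Klf7, up to 4 per pathway list and 3 per marker list by smallest p, gate markers, and up to 2 nearest genes by correlation.

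Alternatives left out arrays, took the replicate number as a block or the arrays numbered 4 as a batch, and changed normalisation, weights, prior, filter, probe sets and pseudocount. Promoters came from RefSeq (GRCm38.p6), figures from matplotlib 3.10.9.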

Additional observations from a re-analysis of the deposited data

Results flagged for a closer look

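Of 122 groups of 4 arrays (61 named genes in each of the 2 groups), 9 held 1 array far from its other 3. Chance gives about 1 in 20, or 6. On the array labelled control 4, Csf2rb was low at 9.83 and Csf2rb2 at 8.63, while Gbp7 was high at 7.43 and Lax1 at 7.66. On the array labelled KLF7 4, Lax1 was high at 6.34 and Etv4 low at 4.92. On the array labelled control 3, Irf4 was low at 5.29 and Cd74 at 9.34, and on the array labelled KLF7 2, Cish was low at 9.24 (all log2 intensities).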

How the results depend on the processing

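Over 20 settings, the 9 receptor genes kept the direction of their difference in 174 of 180 values, and the 6 that turned came from leaving out 1 array. Several of the settings could not change a receptor gene's difference, so their agreement was fixed in advance. These were the replicate block, the batch term, no intensity trend, the robust prior, leaving out the dimmer 50% of genes, and averaging probe sets. Leaving out each array in turn gave -0.03 to 0.92 for Kit, -0.38 to 0.51 for Flt3, -0.04 to 0.30 for Csf2ra, -0.17 to 0.33 for Cd34 and -0.04 to 1.55 for Ms4a2. Cd34 was also at -0.14 with quantile normalization applied again. The count of genes past an adjusted p of 0.05 in limma was 0 in most settings, 0 to 1 with any single array omitted, 90 (0.451%) with the replicate number as a block, 26 with a batch term for the arrays numbered 4, and 1637 at an unadjusted p under 0.05. Of the 9 receptor genes, 1 passed with the replicate block, Csf3r (limma adjusted p 0.0498), and 3 at an unadjusted p under 0.05, against 0 in all other settings. Among the other named genes, Itgax passed with the replicate block (limma adjusted p 0.0291). The ordinary two-sample comparison gave 0 genes. The cause of these changes was not tested. The labels do not say that the numbers pair the arrays. Deviations from the group means of same-numbered arrays correlated at 0.350, -0.126, 0.362 and 0.699 for numbers 1 to 4. Numbers 1, 3 and 4 correlated best with their own number, and number 2 did not. The fit without the block was kept because the labels give no pairing, and the calls of Csf3r and Itgax depend on that choice. Omitting any single array put the difference of Klf7 between 1.41 and 2.18. Each receptor gene had 1 probe set with its symbol alone, so no other probe set could be compared. Signal over background is not given per array, so no limit of detection could be set for dim genes.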
